A study of Mus musculus with 9 samples.

Results

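The immediate early genes described here are Egr1, Fos, Jun, Junb, Jund, Ier2, Klf2, Atf3, Zfp36 and Btg2. These 10 members were chosen by symbol, and each matched exactly 1 of the 54007 genes or gene models in a table of mouse liver expression. The mice were of the C57BL/6 strain, aged 98 postnatal days, and each of 3 groups gave 3 liver libraries. The HFD+Pc group (replicates 1, 3 and 4) received a high-fat diet and gavage of Papillibacter cinnamivorans, an anaerobic gut bacterium. The HFD group (replicates 1, 2 and 3) received the high-fat diet alone, and the control group (replicates 1, 2 and 4) neither. The series set out to ask what the bacterium does in mice on this diet, and the design text gives 15 mice per group from 6 weeks of age. Not stated in the sources used here are the number of mice behind a library, their sex, whether the other groups were gavaged with a vehicle, and the hour and manner in which livers were taken. P-values therefore measure the spread between these libraries.

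Immediate early genes are transcribed within minutes of a stimulus, without new protein synthesis, because the factors that switch them on (SRF with its ternary complex partners, and CREB) are already present and are activated by kinases such as ERK, JNK and p38. Their mRNAs and proteins are short lived, so a level reflects the recent past of the tissue. In liver they are known to respond to growth factors, feeding hormones, partial hepatectomy, inflammatory signals and the handling of the animal or tissue. Egr1 encodes a zinc finger activator. Fos, Jun, Junb and Jund encode subunits of the dimeric factor AP-1, and Atf3 a related factor of the stress response. Klf2 encodes a zinc finger factor best known from endothelium, Ier2 a nuclear protein induced by growth factors, Zfp36 (tristetraprolin) a protein that speeds decay of AU-rich mRNAs, and Btg2 an antiproliferative regulator of mRNA deadenylation.

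Most members averaged lower in livers of both high-fat diet groups than in control livers, whereas Egr1 averaged higher. Egr1 averaged 8.25 ± 1.16 FPKM in HFD+Pc, 2.32 ± 0.795 FPKM in HFD and 0.973 ± 0.552 FPKM in control (SD, n = 3 each), 8.48-fold higher in HFD+Pc than in control by the ratio of means. Junb, Jund, Klf2, Btg2 and Jun fell in HFD+Pc against control. FPKM is the number of fragments per kilobase of transcript, scaled to the mapped fragments of the library, a scale on which levels of different genes can be compared. Tests were made by limma on log2(FPKM + 1) over the 10988 genes that reached 1 FPKM in 3 or more libraries, with Benjamini-Hochberg adjustment and a threshold of 0.05. Differences are given with their SE in log2(FPKM + 1), where low genes change less than in FPKM itself. Of the 10 members 8 were tested, and Fos and Atf3 stayed below the filter.

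The promoter sequences of members are shown because the regulators named above recognise short motifs. RefSeq windows of 250 bases before to 50 after the transcript start (build GRCm38.p6) were matched by symbol for 8 of the 10 members, all but Egr1 and Ier2. Printed here are Btg2, Klf2 and Junb, which were lower in HFD+Pc than in control, Zfp36, which holds the matches of the SRF and EGR motifs, and Fos, the classic member. Not printed are Atf3, and Jun and Jund, which were also lower in HFD+Pc than in control but hold no match. Any link between motifs and these differences was not tested. Capitals mark motif matches on either strand.
Btg2: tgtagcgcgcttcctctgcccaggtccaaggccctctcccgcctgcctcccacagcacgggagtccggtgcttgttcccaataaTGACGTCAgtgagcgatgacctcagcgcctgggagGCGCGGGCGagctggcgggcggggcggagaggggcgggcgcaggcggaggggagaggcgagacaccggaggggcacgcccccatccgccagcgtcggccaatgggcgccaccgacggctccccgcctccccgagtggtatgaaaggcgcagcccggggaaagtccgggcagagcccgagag
Klf2: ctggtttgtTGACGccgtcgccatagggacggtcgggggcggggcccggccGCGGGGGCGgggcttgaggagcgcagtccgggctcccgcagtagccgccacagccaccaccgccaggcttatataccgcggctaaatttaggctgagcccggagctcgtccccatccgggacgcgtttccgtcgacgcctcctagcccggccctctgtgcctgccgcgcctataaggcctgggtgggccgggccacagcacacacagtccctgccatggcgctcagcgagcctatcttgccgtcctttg
Junb: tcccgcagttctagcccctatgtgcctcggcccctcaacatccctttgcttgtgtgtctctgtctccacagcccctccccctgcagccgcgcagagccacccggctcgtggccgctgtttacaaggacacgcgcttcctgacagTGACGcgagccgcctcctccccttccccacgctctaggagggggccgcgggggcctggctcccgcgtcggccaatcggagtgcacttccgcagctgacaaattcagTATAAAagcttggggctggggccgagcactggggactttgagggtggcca
Zfp36: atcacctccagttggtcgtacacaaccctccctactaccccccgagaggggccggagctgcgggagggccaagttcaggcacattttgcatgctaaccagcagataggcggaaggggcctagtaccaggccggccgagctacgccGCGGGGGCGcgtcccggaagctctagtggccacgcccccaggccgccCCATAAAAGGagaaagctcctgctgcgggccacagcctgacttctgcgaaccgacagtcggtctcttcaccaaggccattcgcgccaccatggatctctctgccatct
Fos: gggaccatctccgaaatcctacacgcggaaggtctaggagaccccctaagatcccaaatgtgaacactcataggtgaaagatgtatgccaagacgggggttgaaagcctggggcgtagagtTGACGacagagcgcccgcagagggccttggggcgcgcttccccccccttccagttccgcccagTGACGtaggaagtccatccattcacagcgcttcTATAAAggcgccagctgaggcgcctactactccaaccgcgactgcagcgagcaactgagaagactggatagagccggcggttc
The windows lie at chr1:134079106-134079405 on the minus strand for Btg2, chr8:72318812-72319111 on the plus strand for Klf2, chr8:84978699-84978998 on the minus strand for Junb, chr7:28379179-28379478 on the minus strand for Zfp36 and chr12:85473640-85473939 on the plus strand for Fos.

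The motifs searched, on both strands, were the CRE core TGACG bound by CREB and ATF factors, the full CRE TGACGTCA, the AP-1 site TGANTCA, the EGR site GCGNGGGCG, the TATA box TATAAA and the CArG box of SRF. A full CRE also counts as a CRE core on each strand. The CRE core was found in 5 of 8 member windows (Fos, Junb, Klf2, Atf3 and Btg2), against 20.8% of all 32851 windows. Btg2 held the full CRE, 166 bases before its start, a motif present in 1.79% of windows. The EGR site, to which the Egr1 protein can bind, was found in Klf2, Zfp36 and Btg2, against 5.55% of windows. Only Zfp36 held a CArG box among these 8, against 1.63% of all windows. The windows begin 250 bases before the start, so sites farther upstream, in Fos or any other member, were not searched. Fos and Junb held TATAAA, against 13.6% of all windows. Its position from the start was -33 in Fos and 1 in Junb. No member window held the AP-1 site, which 7.81% of all windows held, and the windows of Jun and Jund held none of the 6 motifs. The CRE and EGR motifs contain CG, and the shares over all windows were not matched for base content. GC content was 46.7% in the window of Jund and 58.7% (Fos) to 72.0% (Btg2) in the other member windows. The median over all windows was 52.7%. A match is a description of letters and does not show that a factor is bound.

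**Figure D1:**
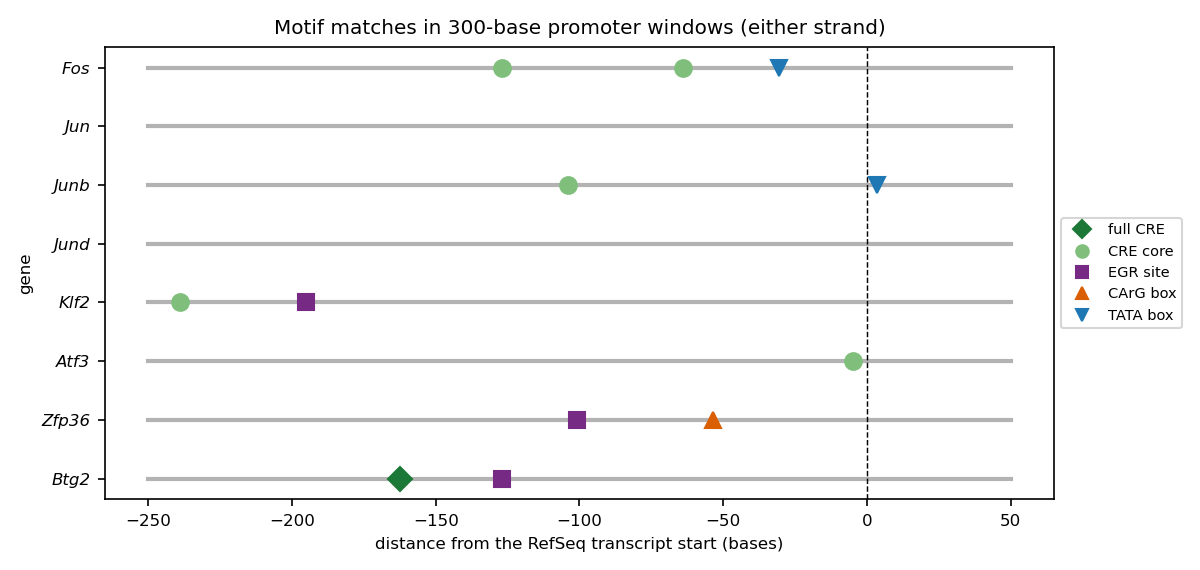
Motif matches on either strand in the 8 RefSeq promoter windows of members, by distance in bases from the transcript start (dashed line). Symbols give the motif, and the CRE cores inside the full CRE of Btg2 are not drawn. CRE cores lie in 5 windows, EGR sites in Klf2, Zfp36 and Btg2, and the windows of Jun and Jund are empty.

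Members are compact genes. By the annotation, 4 of 10 have a single exon in their principal transcript (Jun, Junb, Jund and Ier2), against 2.28% of the tested genes with an exon count, and 4 of 10 lie on chromosome 8 (Junb, Jund, Ier2 and Klf2), against 5.5% of tested genes. Their median length was 2326.5 bases, against 3904 for tested genes. Whole reads could be recovered from the FPKM steps, with library totals of 16408693 to 18775150. Depth differed widely between members, from 10 to 62 reads per library for Fos and 10 to 50 for Atf3 up to 410 to 2044 for Zfp36. Hepatocyte markers were high in every library, with albumin (Alb) at 26086 to 41658 FPKM.

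Egr1 had 8.35, 9.35 and 7.04 FPKM in HFD+Pc livers, 2.58, 2.96 and 1.43 FPKM in HFD livers and 1.002, 1.51 and 0.407 FPKM in control livers. Every HFD+Pc library was above every other library, while HFD replicate 3 lay just below control replicate 2. These levels rest on 533 to 703 reads in HFD+Pc, 108 to 228 in HFD and 33 to 115 in control. Egr1 rose by 2.26 ± 0.23 in HFD+Pc against control (limma adjusted p = 0.00141). This call held in all 21 alternative analyses, with a highest adjusted p of 0.00863. Against HFD, Egr1 rose by 1.5 ± 0.23 in HFD+Pc (limma adjusted p = 0.0446), a 3.55-fold ratio of means. Only 3 of the 9 fits that left out 1 library kept this second call. It was lost without control replicate 1, without HFD replicates 1 or 2 and without any HFD+Pc replicate, with limma adjusted p between 0.0701 and 0.143, and also with a pseudocount of 0.1, a filter of 0.1 FPKM or no filter. Against control, HFD livers differed by 0.76 ± 0.23, which did not pass (limma adjusted p = 0.0720), though it passed without HFD replicate 3 (limma adjusted p = 0.0458). The order of levels was thus HFD+Pc, HFD and control, with the 2 lower groups not separated by the test. The paralogs Egr2 and Egr3 stayed at or below 0.245 and 0.108 FPKM in every library.

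**Figure D2:**
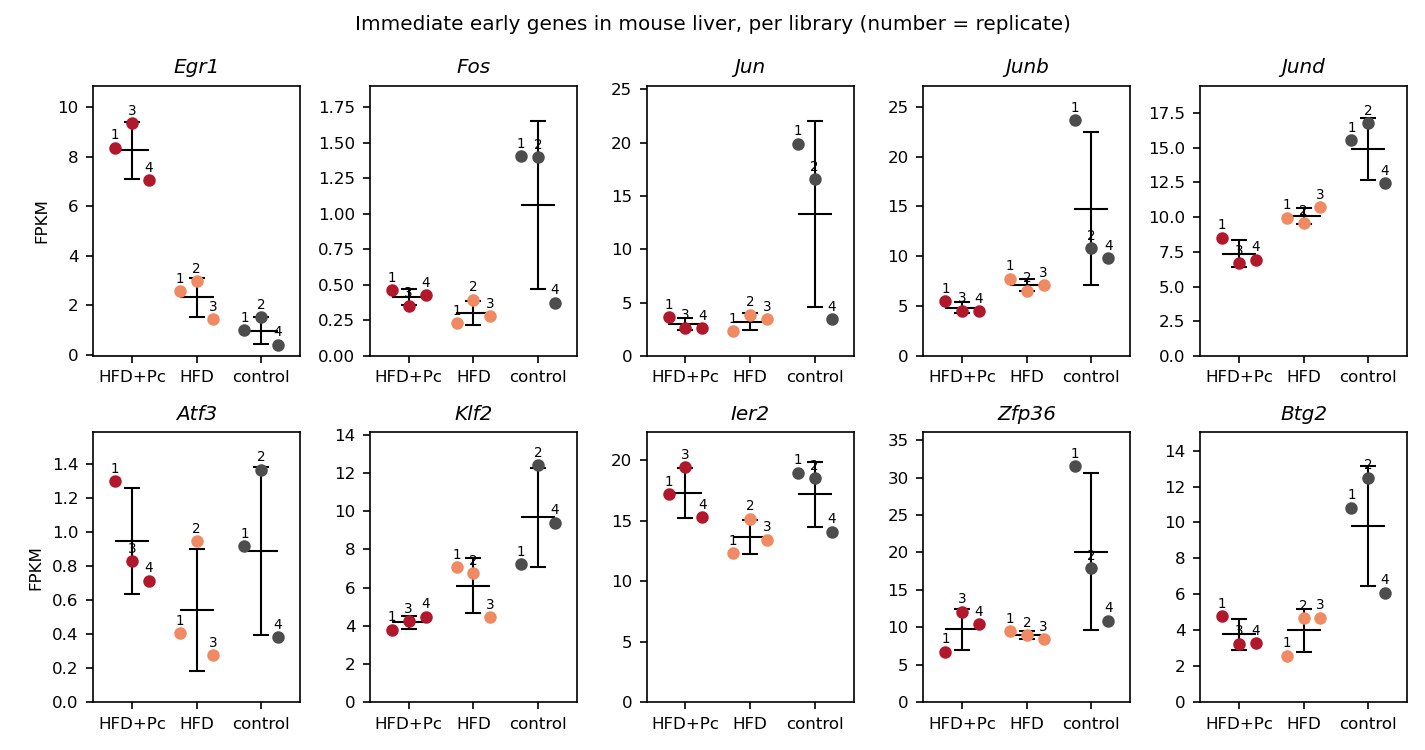
FPKM of the 10 members in each of 9 liver libraries, by group. Points are libraries, numbers beside them are replicates, and bars give mean ± SD (n = 3). Egr1 sits at 7.04 to 9.35 FPKM in HFD+Pc, above all other libraries, while Jun in control ranges from 3.47 to 19.9 FPKM.

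Among the AP-1 subunits, the 3 tested Jun genes fell in HFD+Pc against control, though the call of Jun was kept in only 1 of 9 fits without 1 library. Jund, the Jun protein usually present in resting cells, had 8.51, 6.69 and 6.93 FPKM in HFD+Pc livers, 9.97, 9.57 and 10.7 FPKM in HFD livers and 15.5, 16.8 and 12.4 FPKM in control livers. No library of 1 group overlapped another group, so the levels ran from HFD+Pc through HFD to control. Jund fell by 0.92 ± 0.12 in HFD+Pc against control (limma adjusted p = 0.00192), a call that held in all 21 alternatives. In HFD against control Jund fell by 0.51 ± 0.12 (limma adjusted p = 0.0308). This call did not survive the removal of control replicate 1, control replicate 2 or any HFD replicate, with limma adjusted p up to 0.0984. HFD+Pc and HFD differed by -0.41 ± 0.12 for Jund, which did not pass (limma adjusted p = 0.152).

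Junb, often a counterpart of Jun in AP-1, had 5.52, 4.54 and 4.48 FPKM in HFD+Pc livers, 7.75, 6.56 and 7.08 FPKM in HFD livers and 23.7, 10.8 and 9.83 FPKM in control livers. All HFD+Pc libraries were below all HFD libraries, and all of these below control, where replicate 1 stood well above the others. Junb fell by 1.33 ± 0.26 in HFD+Pc against control (limma adjusted p = 0.00951), with the call kept in all 21 alternatives. The HFD difference from control, -0.86 ± 0.26, did not pass (limma adjusted p = 0.0735), nor did that of HFD+Pc from HFD, -0.48 ± 0.26 (limma adjusted p = 0.424). The groups share a single estimate of spread, so the wide control spread enters that last SE too. Without control replicate 1 the SE of HFD+Pc against HFD was 0.099, and the difference still did not pass (limma adjusted p = 0.0874). The exons of Junb overlap those of Prdx2, a peroxiredoxin gene on the opposite strand, and whether strand was used in counting is not stated. Prdx2 had 32.8 to 36.9 FPKM in HFD+Pc, above the 24.9 to 29.0 FPKM in HFD and 28.0 to 30.5 FPKM in control. Its differences of 0.36 from HFD and 0.24 from control did not pass (limma adjusted p = 0.0944 and 0.0636). Whether reads of Prdx2 affect the level given for Junb was not tested. Opposite-strand overlaps of Jun, Jund and Zfp36 are with RNAs listed at 0.156 FPKM or less (Junos), at 0 (Gm11175) and at 1.14 FPKM or less (Gm44710).

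Jun, the activating subunit encoded by the proto-oncogene, differed most between control libraries. It had 3.62, 2.66 and 2.60 FPKM in HFD+Pc livers, 2.34, 3.85 and 3.43 FPKM in HFD livers and 19.9, 16.6 and 3.47 FPKM in control livers. Control replicate 4 lay within the range of the high-fat diet libraries, while control replicates 1 and 2 lay far above it. Jun fell by 1.59 ± 0.49 in HFD+Pc against control (limma adjusted p = 0.0460), although the groups overlapped. Among the 9 fits without 1 library this call was kept only without control replicate 4, where the difference was -2.29 (limma adjusted p = 0.00138). Removing any other single library ended it, with limma adjusted p up to 0.157, and it passed in 6 of the 12 other alternatives (highest adjusted p = 0.169, by limma-voom). In HFD against control the difference was -1.51 ± 0.49, which did not pass with all libraries (limma adjusted p = 0.0849) and was -2.21 without control replicate 4 (limma adjusted p = 0.00553). HFD+Pc and HFD were close, at -0.08 ± 0.49 with a 95% interval of -1.19 to 1.03 (limma adjusted p = 0.956). That SE includes the wide control spread, and without control replicate 4 it was 0.16 (limma adjusted p = 0.848).

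Fos, the main partner of Jun in induced AP-1, was low. It had 0.462, 0.355 and 0.428 FPKM in HFD+Pc livers, 0.232, 0.396 and 0.278 FPKM in HFD livers and 1.41, 1.40 and 0.376 FPKM in control livers. Control replicates 1 and 2 were above all other libraries and control replicate 4 was within their range, as for Jun. With a filter of 0.1 FPKM Fos differed by -0.50 ± 0.20 in HFD+Pc against control and by -0.62 ± 0.20 in HFD against control, and neither passed (limma adjusted p = 0.131 and 0.110). Atf3 had 1.30, 0.831 and 0.715 FPKM in HFD+Pc livers, 0.405, 0.947 and 0.276 FPKM in HFD livers and 0.918, 1.37 and 0.385 FPKM in control livers. The 3 groups overlapped, and with the lower filter HFD+Pc differed by 0.35 ± 0.22 from HFD and by 0.07 ± 0.22 from control, and HFD by -0.28 ± 0.22 from control (limma adjusted p = 0.584, 0.885 and 0.509).

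Klf2, which in endothelium responds to blood flow, had 3.81, 4.26 and 4.49 FPKM in HFD+Pc livers, 7.08, 6.75 and 4.44 FPKM in HFD livers and 7.24, 12.4 and 9.40 FPKM in control livers. HFD+Pc libraries were all below control, and HFD replicate 3 was at the level of HFD+Pc. Klf2 fell by 1.02 ± 0.19 in HFD+Pc against control (limma adjusted p = 0.00788), in all 21 alternatives as well. HFD differed from control by -0.58 ± 0.19 and HFD+Pc from HFD by -0.43 ± 0.19, and neither passed (limma adjusted p = 0.0878 and 0.322). The summed level of 12 endothelial markers was 106 to 109 FPKM in HFD+Pc and 94.1 to 118 FPKM in HFD, against 131 to 145 FPKM in control. All 11 tested markers had a negative difference in HFD+Pc against control, with a median of -0.28, and in 9 of them the groups did not overlap. Of all tested genes 20.8% were lower there with no overlap. At the adjusted threshold 2 fell and none rose, against 11.9% and 11.1% of all tested genes, Cdh5 (VE-cadherin) by 0.55 ± 0.12 and Oit3 by 0.32 ± 0.10 (limma adjusted p = 0.0130 and 0.0474). At an unadjusted p under 0.05, 8 were lower, and the share of all tested genes at that threshold was not counted. The count of 2 was 1 to 4 without 1 library and 0 to 7 in other alternatives, 0 with the replicate block and 4 by limma-voom. It was 1 without control replicates 1 or 4, HFD replicate 1 or HFD+Pc replicate 3, and 4 without HFD replicate 2. The Oit3 call was kept in 1 of 9 fits without 1 library. In HFD against control all 11 were again negative, with a median of -0.33, 9 of them at an unadjusted p under 0.05. There 4 fell and none rose, among them Kdr, Stab2 and Ptprb by 0.63, 0.51 and 0.38 (limma adjusted p = 0.0148, 0.0165 and 0.0325). Of all tested genes 5.35% fell and 4.61% rose in HFD against control. The calls of Kdr and Stab2 were each kept in 8 of 9 fits without 1 library and that of Ptprb in 3. The count of 4 was 0 without control replicate 2, and 2 without control replicates 1 or 4 or HFD replicates 1 or 3. No marker had an unadjusted p under 0.05 in the upward direction in either comparison with control. In HFD+Pc against HFD, 7 of the 11 were positive and 4 negative, with a median of 0.12. None passed by limma there, where 0.182% of all tested genes rose and 0.446% fell. At an unadjusted p under 0.05, 2 were higher and 0 lower. Groups did not overlap in 2 higher and 0 lower, against 10.2% and 9.56% of all tested genes. None of the 12 markers was at 0 in any library. Summed markers of macrophages and Kupffer cells had 314 to 490 FPKM in HFD+Pc, 431 to 583 FPKM in HFD and 436 to 604 FPKM in control. All 12 were tested. In HFD+Pc against control 10 of these 12 were negative and 2 positive, with a median of -0.38. By limma 2 fell and none rose there, against the 11.9% and 11.1% above. In HFD+Pc against HFD all 12 were negative, with a median of -0.43, and none passed. In HFD against control 5 were negative and 7 positive, with a median of 0.06, and 1 rose and none fell. The part of these markers in the Klf2 difference was not tested, and in bulk liver fewer cells of a type and less RNA per cell cannot be told apart.

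Of the regulators of mRNA decay, Btg2 had 4.80, 3.26 and 3.28 FPKM in HFD+Pc livers, 2.60, 4.69 and 4.71 FPKM in HFD livers and 10.8, 12.5 and 6.11 FPKM in control livers. Both high-fat diet groups were below every control library and overlapped each other. Btg2 fell by 1.14 ± 0.26 in HFD+Pc against control (limma adjusted p = 0.0161). Removing control replicate 1 or 2, or HFD+Pc replicate 3 or 4, ended the call, with limma adjusted p of at most 0.0598. In HFD against control it fell by 1.09 ± 0.26 (limma adjusted p = 0.0357). That call was kept without control replicate 4 and without HFD+Pc replicate 1 and lost in each other fit without 1 library (limma adjusted p up to 0.117).

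Zfp36 had 6.76, 12.1 and 10.4 FPKM in HFD+Pc livers, 9.53, 8.96 and 8.47 FPKM in HFD livers and 31.5, 17.9 and 10.9 FPKM in control livers. Control replicate 1 stood highest, and control replicate 4 was within the range of HFD+Pc. Differences of -0.89 ± 0.32 in HFD+Pc and -0.96 ± 0.32 in HFD, each against control, did not pass (limma adjusted p = 0.0767 and 0.0924). Without control replicate 4 they were -1.24 and -1.31 and passed (limma adjusted p = 0.0224 and 0.0381).

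Ier2 had no passing difference in any of the 3 comparisons. It had 17.2, 19.4 and 15.3 FPKM in HFD+Pc livers, 12.3, 15.2 and 13.4 FPKM in HFD livers and 19.0, 18.5 and 14.1 FPKM in control livers. HFD+Pc and control overlapped, with a difference of 0.01 ± 0.13 and a 95% interval of -0.28 to 0.31 (limma adjusted p = 0.952). HFD lay lower, at -0.31 ± 0.13 against control, while HFD+Pc was 0.32 ± 0.13 above HFD. Neither passed (limma adjusted p = 0.161 and 0.278).

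**Figure D3:**
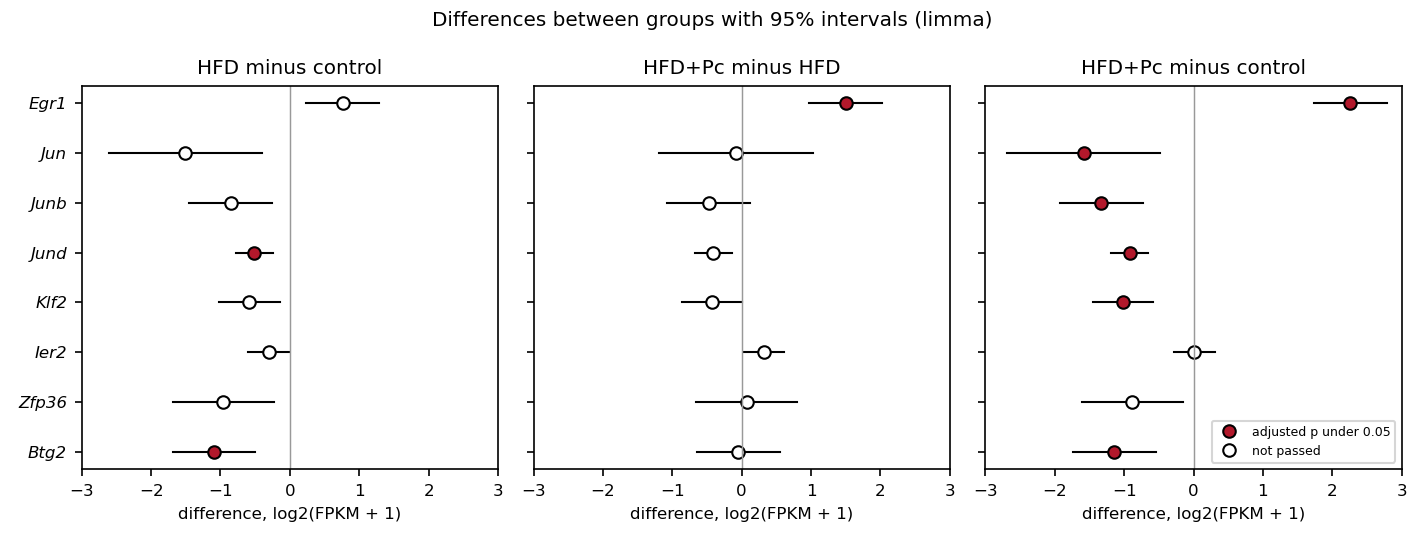
Differences in log2(FPKM + 1) of the 8 tested members with 95% limma intervals, for HFD minus control (left), HFD+Pc minus HFD (middle) and HFD+Pc minus control (right). Filled points passed at an adjusted p under 0.05. In the right panel 6 members lie below 0, 5 of them filled, and Egr1 lies above it, at 2.26.

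In counts, 5 of 8 tested members fell and 1 rose in HFD+Pc against control, where 11.9% of all tested genes fell and 11.1% rose, 23.1% in either direction. The median difference of the 8 was -0.97, against 0.01 over all tested genes. Between HFD and control 2 of 8 fell (Jund and Btg2) and none rose by limma, against 5.35% and 4.61% of tested genes. Their median was -0.72, against -0.00 over all tested genes. At an unadjusted p under 0.05, 7 were lower and 1 (Egr1) higher, and limma-voom on recovered reads called 1 lower and 0 higher. The share of all tested genes at an unadjusted p was not counted. Unadjusted counts of members and of gene lists therefore have no background to be set against. Between HFD+Pc and HFD 1 rose (Egr1) and none fell by limma, against 0.182% and 0.446% of tested genes, with a median of -0.06 against 0.01. At an unadjusted p under 0.05, 2 were higher and 1 lower there, and limma-voom called 1 higher and 0 lower. The comparisons share libraries, so their counts are not independent.

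The count of falls depended on single libraries. For HFD+Pc against control it was 3 without control replicate 1 or 2 or HFD+Pc replicate 3 or 4. For HFD against control it was 0 without control replicate 1 or 2 or any HFD replicate, 1 without HFD+Pc replicate 3 or 4, and 4 without control replicate 4. Groups did not overlap in 4 members lower in HFD+Pc than in control (Junb, Jund, Klf2 and Btg2) and 1 higher (Egr1), against 20.8% and 22.1% of tested genes. They did not overlap in 5 members lower in HFD than in control (the same 4 and Zfp36) and 0 higher, against 16.4% and 16.5%. Between HFD+Pc and HFD, Egr1 and Ier2 were higher and Junb and Jund lower with no overlap, against 10.2% and 9.56% of tested genes.

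The spread between libraries was itself uneven. In all 8 tested members the range of log2(FPKM + 1) was wider in control than in HFD+Pc or HFD, which held for 29.1% of tested genes. The median range of the 8 was 0.34 in HFD+Pc, 0.41 in HFD and 0.88 in control, against 0.23, 0.24 and 0.21 over all tested genes. Control replicate 4 was the lowest control library for 9 of 10 members, all but Klf2, against 35.0% of tested genes. The mean of the 7 tested members other than Egr1, relative to each gene's own mean, stood at -0.33 in HFD+Pc replicate 1, -0.37 in replicate 3 and -0.43 in replicate 4, and at -0.30, -0.15 and -0.24 in HFD replicates 1, 2 and 3. It was 0.94, 0.78 and 0.09 in control replicates 1, 2 and 4. Control replicate 4 thus lay above all 6 high-fat diet libraries on this mean, but nearer to them than to the other 2 control libraries. Egr1 was lowest in control replicate 4 too. Without that library the difference of HFD from control was 0.54 for Egr1 and -2.21 for Jun, against 0.76 and -1.51 with all libraries. It was thus smaller in size for Egr1 and larger for Jun.

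Of 40 other early response genes 29 were tested, and 26 of these had a negative difference between HFD+Pc and control. By limma 12 fell and 1 rose there, and 4 fell and none rose in HFD against control, with medians of -0.46 and -0.34. Of all tested genes 11.9% fell and 11.1% rose in HFD+Pc against control, and 5.35% and 4.61% in HFD against control. Between HFD+Pc and HFD none passed, with a median of -0.17. At an unadjusted p under 0.05, 5 were lower and 0 higher in that comparison, and limma-voom called none. Sik1, a kinase induced by cAMP, had 1.31, 1.17 and 1.07 FPKM in HFD+Pc livers, 1.41, 1.90 and 1.70 FPKM in HFD livers and 11.3, 14.6 and 3.85 FPKM in control livers. It fell by 2.16 ± 0.35 in HFD+Pc and by 1.87 ± 0.35 in HFD, each against control (limma adjusted p = 0.00467 and 0.0173). Dusp1, a phosphatase that switches off MAP kinases, had 5.89, 6.49 and 6.29 FPKM in HFD+Pc livers, 5.25, 5.65 and 3.75 FPKM in HFD livers and 30.02, 18.6 and 10.6 FPKM in control livers. It fell by 1.41 ± 0.30 in HFD+Pc and by 1.72 ± 0.30 in HFD, each against control (limma adjusted p = 0.0116 and 0.0136). In HFD against control the call of Sik1 was lost without control replicates 1 or 2 or HFD replicate 1, and that of Dusp1 without control replicate 2 (limma adjusted p up to 0.0699 and 0.0502). In Sik1 and Dusp1 control replicate 4 was again the lowest control library, yet above all 6 high-fat diet libraries.

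Csrnp1, a nuclear factor named for its serine and cysteine content, fell by 1.05 ± 0.19 in HFD+Pc and by 1.01 ± 0.19 in HFD against control (limma adjusted p = 0.00577 and 0.0158). The call in HFD was lost without control replicate 2 (limma adjusted p = 0.0505). Cebpb, a bZIP factor of the acute phase response, fell by 1.15 ± 0.20 in HFD+Pc against control (limma adjusted p = 0.00568), and Zfp36l2, a relative of Zfp36, by 0.79 ± 0.12 (limma adjusted p = 0.00342). Maff, a small Maf protein, was the gene that rose, by 0.47 ± 0.12 in HFD+Pc against control (limma adjusted p = 0.0243). It reached 1 FPKM only in HFD+Pc replicates 3 and 4 and HFD replicate 1, at 1.13, 1.30 and 1.03 FPKM. Control libraries had 0.474 to 0.618 FPKM, so Maff entered the test only through groups where it was higher. Btg1, a relative of Btg2, fell by 0.41 ± 0.11 in HFD against control (limma adjusted p = 0.0494), a call kept in 1 of 9 fits without 1 library. Between HFD+Pc and control the calls of Sik1, Dusp1, Csrnp1, Cebpb and Zfp36l2 held in all 9 fits without 1 library, and that of Maff in 4 of the 6 in which it was tested. The 12 falls became 6 without HFD+Pc replicate 3, the lowest count of the 9 fits, and the 4 falls in HFD against control became 0 without control replicate 2 and 7 without control replicate 4.

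**Figure D4:**
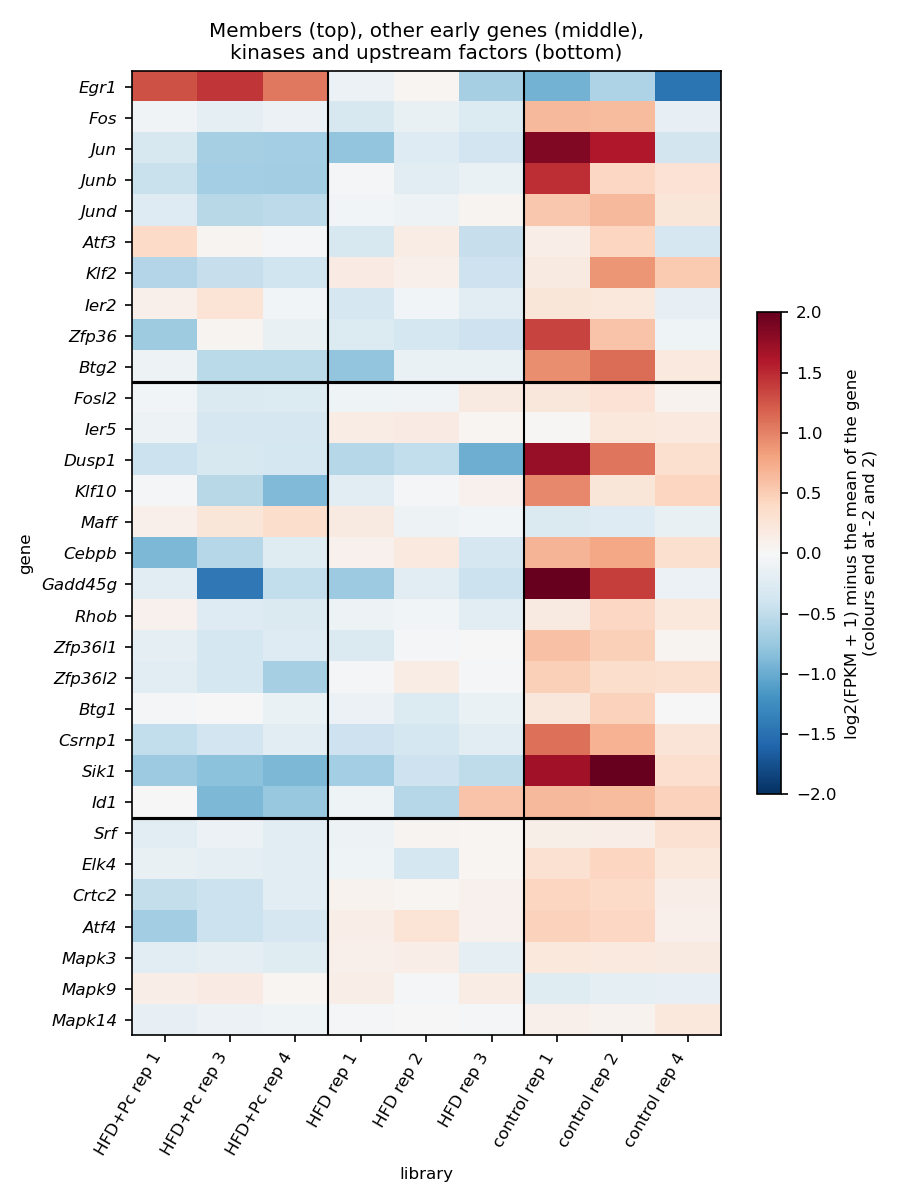
Level of each gene per library, as log2(FPKM + 1) minus the gene's mean over the 9 libraries, for the 10 members (top), the other early genes that passed in any comparison (middle) and kinases and factors upstream of them that passed (bottom). Red is above and blue below the mean. Egr1 is red in HFD+Pc and blue in control, opposite to most rows, and control replicate 4 is paler than control replicates 1 and 2 in Jun.

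Of 24 genes for kinases and factors that act upstream of immediate early genes, 22 were tested. By limma 6 fell and 1 rose in HFD+Pc against control, where 11.9% and 11.1% of all tested genes did, with a median of -0.13. Among the falls, Atf4, a bZIP activator of the integrated stress response, had 15.9, 19.2 and 20.7 FPKM in HFD+Pc livers, 28.8, 32.0 and 27.8 FPKM in HFD livers and 36.7, 35.2 and 28.1 FPKM in control livers. It differed by -0.81 ± 0.13 between HFD+Pc and control (limma adjusted p = 0.00360). Crtc2, the coactivator that carries cAMP signals to CREB in liver, fell by 0.69 ± 0.10 and Mapk3, which encodes the kinase ERK1, by 0.42 ± 0.09 (limma adjusted p = 0.00302 and 0.0106). The rise was that of the JNK gene Mapk9, by 0.31 ± 0.07 (limma adjusted p = 0.0184), a call kept in 6 of the 9 fits without 1 library. Between HFD and control Elk4, an SRF partner, fell by 0.45 ± 0.11 and Mapk9 rose by 0.28 ± 0.07 (limma adjusted p = 0.0310 and 0.0440). These were the only calls of the list there, where 5.35% of all tested genes fell and 4.61% rose. Those calls held in 5 and 2 of the 9 fits without 1 library. No gene of this list passed between HFD+Pc and HFD by limma, where 4 were lower and 0 higher at an unadjusted p under 0.05 and limma-voom called 1 lower.

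Genes tied to glucocorticoids, the hormones released on handling, were measured beside the members. Most are targets, while Nr3c1 encodes the glucocorticoid receptor itself. The summed level of 8 such genes was 250.2 to 516 FPKM in HFD+Pc, 228 to 432 FPKM in HFD and 424 to 716 FPKM in control. Most of that sum was Tat, at 211 to 461 FPKM in HFD+Pc, 186 to 378 FPKM in HFD and 372 to 652 FPKM in control. In each comparison with control 5 of the 8 had a negative difference and 3 a positive one. In HFD against control the 3 were Tsc22d3, Lcn2 and Nr3c1, at 0.28, 0.29 and 0.20, and none of them passed. Per1 fell in HFD+Pc against control by 1.1 ± 0.22 and Fkbp5 by 1.29 ± 0.29, and none rose (limma adjusted p = 0.00916 and 0.0137). Of all tested genes 11.9% fell and 11.1% rose in that comparison. Without HFD+Pc replicate 3 the Fkbp5 call was lost (limma adjusted p = 0.0502), and without control replicate 1 another gene of the list rose. At an unadjusted p under 0.05, 1 was higher with all libraries. Against control, Per1 fell in HFD by 1.03 ± 0.22 and Sgk1 by 0.65 ± 0.12, and none rose (limma adjusted p = 0.0238 and 0.0163). Of all tested genes 5.35% fell and 4.61% rose in HFD against control. The Per1 call in HFD was kept in 4 of 9 fits without 1 library, being lost without control replicates 1 or 2 or any HFD replicate (limma adjusted p up to 0.0765). Per1 is also a clock gene, and the sources used here give no hour of sampling. On the mean over this list, control replicate 4 was the highest control library, at 0.54, against 0.25 and 0.16 in control replicates 1 and 2. That held for 4 of the 8 genes (Tsc22d3, Fkbp5, Tat and Zbtb16), with Zbtb16 and Fkbp5 farthest above their own means at 1.83 and 1.25. Per1 was instead lowest in control replicate 4, at 0.49, against 0.82 in each other control library, as most members were. The part of handling in the differences of the members was not tested.

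Tested genes other than members, with profiles like those of the members, were ranked by the root mean square difference of centred log2(FPKM + 1) over the 9 libraries. Nearest to the mean of the 8 tested members were Chpf2, Tnfrsf12a, Usp6nl, Tspan4 and Zfp36l1, at 0.12, 0.13, 0.13, 0.14 and 0.15. Nearest to Egr1 itself, whose range over the libraries was wider, were Depp1, Cyp26b1, Hectd2os, mt-Tw and Adh4, at 0.40, 0.42, 0.44, 0.49 and 0.54. This measure grows with the range of a profile, so the 2 sets of distances are not comparable. Depp1 had 61.2, 127 and 101 FPKM in HFD+Pc livers, 57.03, 54.8 and 44.7 FPKM in HFD livers and 21.1, 33.9 and 18.2 FPKM in control livers, so it too was highest in HFD+Pc and lowest in control.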

How the data were processed

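Trizol was used to extract liver RNA, and libraries followed Illumina protocols, per the labels' protocols. Reads were aligned with HISAT2 2.0.5 and the build was GRCm39, per the submitters' processing notes. The counting tool, its strand setting and the annotation are not given in the sources used here. The values deposited by the authors are FPKM, per the file headers. Symbols were found for 52093 of 53700 Ensembl identifiers. Gene lengths, exon numbers, chromosomes and overlaps came from GENCODE M21, which is on the earlier build GRCm38. Whole reads were recovered from the FPKM steps for 25539 of 26278 genes above 0 (97.2%, tolerance 0.02 reads). In a gene of 1 kb, 3 reads correspond to 0.160 to 0.179 FPKM, a floor for counting error only.

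Limma 3.58.1 in R 4.3.3 (lmFit, eBayes with trend and robust estimation) was run on log2(FPKM + 1) in a single model of the 9 libraries with group as its only term. The groups share a single estimate of spread per gene, so control libraries also enter the SE of HFD+Pc against HFD. The test was checked on simulated data with known changes, drawn with the same dispersion for all genes and libraries. That check does not cover groups of unequal spread, as seen for the members. The alternatives were pseudocounts, filters, scalings, limma-voom on recovered reads, 2 groups alone, a replicate block, plain eBayes, a threshold of 0.1 and each library left out, plus scaling to plain read totals, added after seeing the data. Members and gene lists were chosen with earlier results of these data known. 1 gene of the upstream list is not reported here and was left out of its counts. All members are named. Of the early, upstream, glucocorticoid and endothelial lists, passing genes with the lowest adjusted p are named. The limit was 5 per direction for early genes and 3 for the others. Passing genes of the lists of heat shock genes and of other cell type markers, macrophages and hepatocytes among them, are not named. Overlapping genes, Egr2, Egr3, Alb, Tsc22d3, Lcn2, Nr3c1, Tat and Zbtb16 were named after their values were seen. Tables and figures were made with Python 3.11.15, pandas 2.3.3 and matplotlib 3.10.9.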

Additional observations from a re-analysis of the deposited data

How the results depend on the processing

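The counts of members that passed depended on the setting. In HFD against control 2 fell, and the count was 0 with no filter, 0 with a minimum of 0.1 FPKM, 0 with the replicate block, 1 by limma-voom, 1 with only the 2 groups compared and 6 at a threshold of 0.1, where 1 rose. Leaving out 1 library gave 0 to 4 falls and 0 to 1 rises. In HFD+Pc against HFD the 1 rise became 0 with a pseudocount of 0.1, with no filter and with a minimum of 0.1 FPKM, and 0 to 1 without 1 library. In HFD+Pc against control the 5 falls became 3 with no filter, 4 with a pseudocount of 0.1, a minimum of 0.1 FPKM, limma-voom, the replicate block or only the 2 groups compared, 6 at a threshold of 0.1 and 3 to 6 without 1 library, and the 1 rise stayed 1 in every alternative. Counts over all genes moved as well: without 1 library, 1 to 39 rose and 3 to 84 fell in HFD+Pc against HFD (20 and 49 with all), 161 to 518 and 171 to 608 in HFD against control (507 and 588), and 600 to 1265 and 796 to 1379 in HFD+Pc against control (1225 and 1313).

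Of 504 member values under an alternative, 436 kept their sign and their side of the threshold, 48 lost a call, 10 gained one and 10 changed sign, none of these 10 a passing difference. Over the fits without 1 library, differences of HFD+Pc from HFD ran from -0.24 to 0.031 for Jun, -0.085 to 0.29 for Zfp36 and -0.27 to 0.062 for Btg2, and Ier2 in HFD+Pc against control from -0.11 to 0.094. Signs changed in HFD+Pc against HFD for Jun without HFD replicate 2, Zfp36 without HFD+Pc replicate 3 and Btg2 without HFD replicates 2 or 3 or HFD+Pc replicates 3 or 4, and for Ier2 in HFD+Pc against control without control replicate 4 or HFD+Pc replicate 3. With the replicate block, HFD+Pc minus HFD was 0.39 for Jun and 0.21 for Btg2. Jun lost its call in HFD+Pc against control with the replicate block (adjusted p = 0.0721) and also with a pseudocount of 0.1, a minimum of 0.1 FPKM, no filter, limma-voom or only the 2 groups compared (adjusted p up to 0.169). The labels do not say that a number marks a pair, and same-numbered libraries showed correlations of their deviations between -0.119 and 0.0533. No scaling moved the median of all genes by more than 0.0617 on the log2 scale. Fos and Atf3, at 10 to 62 reads per library, are limited by depth. The causes of these changes were not tested.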
